A study of Mus musculus with 8 samples.

Results

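Border-associated macrophages that carried the mannose receptor gene *Mrc1* were followed in CD45+ cells from the brains of 8 mice, with 1 single-cell library per mouse. A cell became a member when the unique molecules (UMIs) on *Mrc1*, *Cd163*, *Pf4*, *Cbr2*, *Stab1* and *Dab2* summed to at least 8, with at least 3 of these 6 genes detected. Its UMIs on *Cd3e*, *Cd79a* and *Cldn5*, plus those on *Ttr* divided by 100, could sum to at most 1. Cells were barcodes with at least 800 and fewer than 45000 UMIs, at least 250 and fewer than 6500 genes, and under 5% of counts on mitochondrial genes. Of 119053 such cells, 3687 were members, and 994 of these held at least 1 UMI of *Lyve1*, the lymphatic vessel hyaluronan receptor, while 2693 held none. The mice were male C57Bl/6J animals, 5 to 6 months old by the labels (the study's methods give a younger range), killed 24 hours after an intraperitoneal injection. Of these, 4 had received saline and 4 had received lipopolysaccharide (LPS) at 1.5e7 EU/kg. All brains were dissociated enzymatically with the Adult Brain Dissociation Kit, and cells carrying CD45, a surface protein of haematopoietic cells, microglia and border macrophages included, were pulled out with magnetic beads and captured by PIPseq. Within each treatment, 2 brains were dissociated with the solvent DMSO and 2 with a mixture of the transcription and translation inhibitors actinomycin D, triptolide and anisomycin. No brain was perfused, so cells from inside the vessels remained in the suspensions, and each brain gave cells of the perivascular space, meninges and choroid plexus without a record of which. Replicate 1 of each group came from batch 1 of the labels and replicate 2 from batch 2.

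Border-associated macrophages line the interfaces of the brain with blood and cerebrospinal fluid: the perivascular spaces, the meninges and the choroid plexus. They are scavenging cells, recognised by the endocytic receptors CD206, which *Mrc1* encodes, and CD163, and they are commonly parted into cells with high *Lyve1* and low MHC class II and cells with the opposite pattern. LPS, a component of the outer membrane of gram-negative bacteria, is sensed through CD14, MD-2 and TLR4, and the pathway leads through NF-kappaB to the transcription of cytokine, chemokine and acute-phase genes.

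The label was checked against genes that the rule had not used, and microglia, the other resident macrophages of the brain, served as the comparison (61017 cells chosen by 7 microglial genes, among them *P2ry12*, *Tmem119*, *Siglech*, *Gpr34*, *Sparc* and *Cx3cr1*). Microglia held at least 8 UMIs on these genes, with at least 3 detected. They held at most 1 UMI on the 6 genes of the member rule and at most 1 on *Ly6c2* and *Plac8*, within the same limit on *Cd3e*, *Cd79a*, *Cldn5* and *Ttr*. Members had no such limit on microglial or monocyte genes. All values of expression below are CPM, the UMIs of a gene scaled to a fixed total of the UMIs summed over the members of a library, with library sizes scaled by TMM, and ± gives the SD over 4 libraries. In the fit with both classes, *F13a1*, the coagulation factor XIII subunit of tissue macrophages, stood at 1115 ± 84.98 CPM in members of the saline libraries and at 7.86 ± 1.25 CPM in microglia. *Ms4a7*, a membrane protein gene of non-microglial brain macrophages, stood at 741 ± 153 CPM in members and 4.51 ± 2.25 CPM in microglia. *Apoe*, the lipid carrier apolipoprotein E, reached 28410 ± 4768 CPM in members and 822 ± 268 CPM in microglia. *Lyve1* itself was at 448 ± 169 CPM in members and 1.27 ± 0.842 CPM in microglia. In the saline libraries these genes therefore had the pattern of the label against microglia, the only class of cells compared in this check. With LPS each of them was lower in members, as given below, and the label of the LPS members was not checked in this way. Microglial genes were not absent from the members: *P2ry12*, the purinergic receptor of homeostatic microglia, was at 543 ± 75.3 CPM against 4212 ± 393 CPM in microglia of the saline libraries. Between 10.1% and 15.3% of the members of a library held more UMIs of these 7 microglial genes than of the 6 genes of the rule. No doublet caller was run, and the comparisons by LPS, DMSO and *Lyve1* and that with microglia were computed again without these mixed cells, unlike the *Lyve1* share and the other interactions.

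The 6 genes that chose the members are described without a test. *Mrc1* stood at 3356, 3278, 3055 and 3444 CPM in the saline libraries (DMSO 1 and 2, then inhibitors 1 and 2, an order kept below) and at 1421, 1000, 1131 and 1071 CPM in the LPS libraries, a ratio of mean saline to mean LPS of 2.84. *Stab1*, the scavenger receptor stabilin-1, stood at 2041, 2342, 2330 and 2380 CPM with saline and at 348, 380.4, 359.8 and 239 CPM with LPS, a ratio of 6.85. For *Cbr2*, carbonyl reductase 2, the ratio was 3.53, for *Dab2*, an adaptor of clathrin-dependent uptake, 2.66, and for *Pf4*, platelet factor 4, 1.81. The groups did not overlap for these 5 genes. *Cd163*, the haemoglobin-haptoglobin scavenger receptor, was the exception, with 936, 666, 899.5 and 632 CPM with saline and 1078, 798, 936 and 603 CPM with LPS, ranges that overlapped at a ratio of 0.918. The median UMI sum on the 6 genes was 25 to 32 per member in saline libraries and 12 to 14 in LPS libraries, near the limit of 8. Members with a sum of exactly 8 numbered 11 to 22 per saline library and 25 to 38 per LPS library, and cells just outside, with a sum of 7, numbered 14 to 22 and 31 to 43.

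Members made up 5.45%, 3.13%, 4.17% and 5.73% of the cells within the limits in the saline libraries and 1.80%, 1.61%, 1.90% and 1.40% in the LPS libraries, 4.62 ± 1.20% against 1.68 ± 0.222%. The groups did not overlap. The rule is a limit on UMIs of genes whose level differed between the groups, and the value is a share of all cells. Fewer members, less marker RNA per cell and more cells of other kinds therefore cannot be told apart here, and no test was run. The study reported higher shares of neutrophils and monocytes with LPS, and lower shares of plasma cells, B cells and dendritic cells. It reported no significant change for its other immune cell types, and macrophages are among these. The study's macrophages came from clusters named by marker genes, so they need not be the members chosen here. Applying the rule to cells thinned to 2000 UMIs gave 2.24% to 4.35% with saline and 0.657% to 0.973% with LPS. Member counts were 721, 420, 672 and 841 with saline and 307, 194, 289 and 243 with LPS, with a median of 1983 to 2690 UMIs per member against 2646 to 3141.

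**Figure D1:**
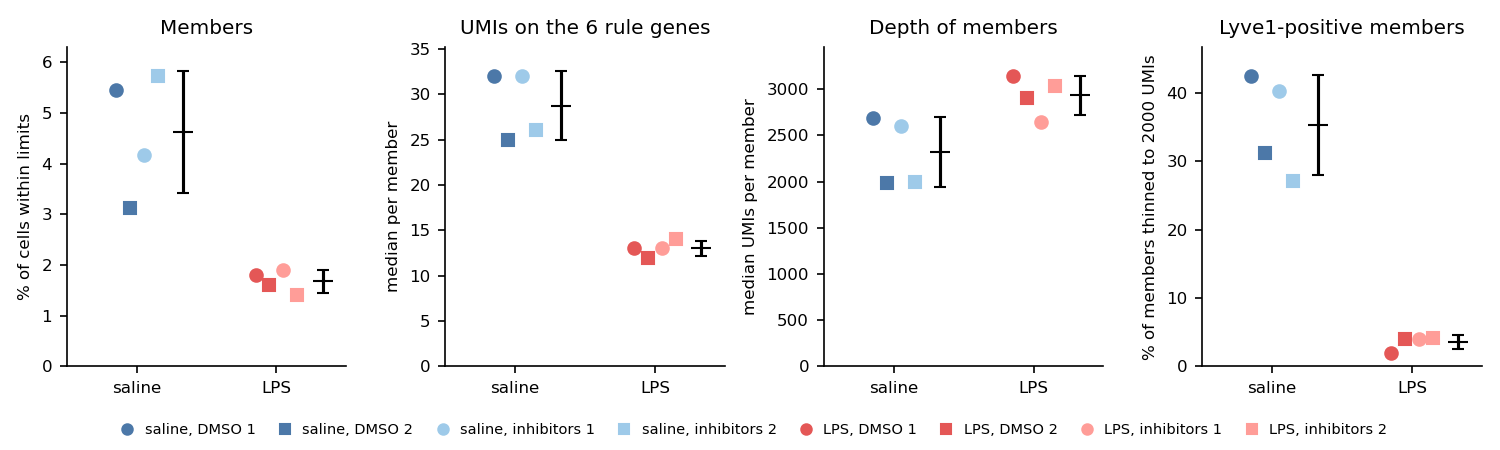
Each point is 1 library (saline or LPS, DMSO or inhibitors) and the bar shows the mean ± SD of the 4 libraries of a treatment. The panels show members as a percentage of cells, the median number of UMIs on the 6 genes of the rule, the median number of UMIs per member, and the percentage of members with *Lyve1* after thinning to 2000 UMIs. LPS libraries lie below saline libraries in all panels but that of UMIs per member, and the medians per member overlap between the groups, at 1983 to 2690 and 2646 to 3141 UMIs.

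The deposited counts summed to between 90352359 and 141182123 UMIs per library, and the members' share of them to between 786149 and 2314118, which set the precision of every value below. Pairs of libraries shared 0 to 25 cell barcodes, and no member barcode occurred in more than 1 library. Free RNA was estimated from haemoglobin genes alone, as their share of the members' counts over their share in barcodes with few UMIs. By this estimate it accounted for 2.02% to 4.82% of the members' counts. Without a library block, p-values for expression measure the spread between mice. With it, they set the difference between the sums of a library against its variation over libraries, not against the spread of levels between mice. In both kinds of fit this spread is pooled over genes. The smallest p-values of the comparisons with a library block rest on that pooling, and the values of 1 gene in 8 libraries could not give them.

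A large part of the members' transcriptome differed between LPS and saline libraries. As most rule genes were lower with LPS, change within cells and change in which cells met the rule cannot be told apart here. Of 9915 genes tested, 5118 (51.6%) passed the test, and 2555 were higher (25.8%) and 2563 lower (25.8%) with LPS at an adjusted p under 0.05 (quasi-likelihood test of edgeR, p adjusted by Benjamini-Hochberg, as for every adjusted p on expression below). With the further limit of an absolute log2 fold change over 2, 349 were higher (3.52%) and 407 lower (4.1%). The 4 LPS libraries lay above all saline libraries for 2251 genes (22.7%) and below them for 2333 (23.5%). The balance of both directions rests on the TMM scaling. With library totals in its place, the median log2 fold change of all genes moved from -0.03 to -0.33 and the calls to 1644 higher and 3725 lower, so that 30.6% of the calls were rises in place of 49.9%.

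The largest rises were in acute-phase and antimicrobial genes. *Saa3*, the serum amyloid A gene of extrahepatic tissues, stood at 63.03, 77.3, 4.57 and 134 CPM in the saline libraries and at 151500, 145700, 125500 and 153600 CPM in the LPS libraries. It took 13.5%, 12.5%, 12.3% and 13.6% of all UMIs of the members with LPS, and between 0.000538% and 0.0139% with saline (log2 fold change 11.03, SE 0.76, adjusted p = 2.4e-08). In the same LPS libraries *Saa3* made up 3.51% to 4.80% of the free RNA, 3.28% to 4.30% of the UMIs of microglia and 0.174% to 0.303% of those of B cells. Each of these shares lay below that in the members. Its near relatives *Saa1* and *Saa2*, whose reads may be split with *Saa3* during counting, were almost unseen with saline: *Saa1* had 1 UMI there and 685 with LPS, a ratio of 1510 with a counting interval of 271 to 59800, and *Saa2* had 0 against 199, at least 146-fold higher with LPS against a floor of 3 counts over the saline libraries. *Lcn2*, the siderophore-binding protein lipocalin-2, rose from 14.6, 8.58, 0.415 and 2.43 CPM to 11730, 10760, 8390 and 11500 CPM (log2 fold change 10.77, SE 0.49, adjusted p = 3.8e-10). *Hp*, haptoglobin, rose from 3.75, 4.77, 1.25 and 3.41 CPM to 774, 901, 1002 and 662 CPM (log2 fold change 8.04, SE 0.28, adjusted p = 5.8e-11). *Mt2*, a zinc-binding metallothionein, rose from 18.4, 14.3, 12.9 and 20.9 CPM to 6598, 5146, 3365 and 4999 CPM (log2 fold change 8.19, SE 0.27, adjusted p = 5.3e-11). The lowest LPS value of each of these genes exceeded its highest saline value, which was a condition for naming them.

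Receptors, cytokines and enzymes of the activated macrophage formed the rest of the leading rises. *Clec4e*, the receptor Mincle for mycobacterial and damage-associated glycolipids, stood at 0.375, 0, 0.830 and 0.973 CPM with saline and at 592, 327, 271 and 579 CPM with LPS (log2 fold change 9.31, SE 0.43, adjusted p = 4.5e-10). *Marco*, a scavenger receptor for bacteria, stood at 4.88, 9.54, 0.415 and 0.973 CPM and at 342, 877, 1500 and 886 CPM (log2 fold change 8.02, SE 0.57, adjusted p = 3.4e-08). The lowest LPS value of *Marco*, in DMSO 1, still lay far above the highest saline value. *Il1rn*, the antagonist of the interleukin-1 receptor, stood at 2.63, 0.954, 0.415 and 0.487 CPM with saline and at 291, 175, 179.9 and 206 CPM with LPS (log2 fold change 7.36, SE 0.31, adjusted p = 2.7e-10). *Acod1*, which makes itaconate, stood at 0.750, 1.91, 1.66 and 0 CPM with saline and at 261, 190.2, 295 and 357 CPM with LPS (log2 fold change 8.04, SE 0.32, adjusted p = 1.6e-10). *Ccl5*, a chemokine for T cells and monocytes, stood at 41.6, 24.8, 47.7 and 23.9 CPM with saline and at 4236, 6586, 3995 and 4866 CPM with LPS (log2 fold change 7.11, SE 0.29, adjusted p = 1.7e-10). *Jaml*, a junctional adhesion molecule of leukocytes, stood at 0.750, 1.91, 1.25 and 0.487 CPM with saline and at 316, 352, 326 and 336 CPM with LPS (log2 fold change 8.28, SE 0.24, adjusted p = 2.1e-11). The groups did not overlap for any of these 6 genes, which was a condition for naming them. *Csf3*, granulocyte colony-stimulating factor, had 2 UMIs over the saline libraries and 845 over the LPS libraries, a ratio of 933 with a counting interval of 257 to 7720. *Cxcl3*, a neutrophil-attracting chemokine, had 3 UMIs against 301, a ratio of 222 with an interval of 75.1 to 1080. *Sphk1*, sphingosine kinase 1, had 2 against 464, a ratio of 512 with an interval of 141 to 4240. Counting intervals cover counting error only.

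The promoters of these rises are shown because the genes moved together and belong to a response in which NF-kappaB and interferon-regulated factors are known to act. The set of RefSeq promoters used here held a window for 12 of the 15 rises named by the rule, and none for *Csf3*, *Hp* and *Ccl5*. A window was the 250 bases before an annotated start in build GRCm38.p6, and every annotated start of a gene in the set was searched. Both strands were searched for strict NF-kappaB letters (GGGNN followed directly by TTTCC) and a looser form that contains them (GGGNN followed directly by NTTCC). Interferon element letters (GAAAN followed directly by NGAAA) were searched for too, N being any base. The strict NF-kappaB letters were found for 3 of the 12 genes, the looser form for 5 and the interferon letters for 2, and 6 genes held any of them (*Saa3*, *Sphk1*, *Jaml*, *Marco*, *Cxcl3* and *Il1rn*). Over all 27025 genes of the promoter set, searched in the same way, these letters occurred for 1.65%, 5.31% and 3.46%. A match is a run of letters and no measurement of binding. The 4 windows below hold the strict NF-kappaB letters or belong to *Saa3*, and their matches are in capitals. They lie on the given strand at chr7:46715677-46715926 (minus, *Saa3*), chr1:120505025-120505274 (minus, *Marco*), chr5:90785851-90786100 (plus, *Cxcl3*) and chr2:24345121-24345370 (plus, *Il1rn*). The match nearest the start begins at base -125 in *Saa3*, -30 in *Marco*, -50 in *Cxcl3* and -51 in *Il1rn*. In *Cxcl3* the first run of capitals joins overlapping matches on both strands.
Saa3: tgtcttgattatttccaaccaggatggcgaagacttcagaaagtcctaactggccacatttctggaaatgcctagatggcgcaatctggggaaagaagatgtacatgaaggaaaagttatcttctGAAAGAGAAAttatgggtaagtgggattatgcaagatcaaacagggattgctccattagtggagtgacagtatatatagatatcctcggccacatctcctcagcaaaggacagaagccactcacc
Marco: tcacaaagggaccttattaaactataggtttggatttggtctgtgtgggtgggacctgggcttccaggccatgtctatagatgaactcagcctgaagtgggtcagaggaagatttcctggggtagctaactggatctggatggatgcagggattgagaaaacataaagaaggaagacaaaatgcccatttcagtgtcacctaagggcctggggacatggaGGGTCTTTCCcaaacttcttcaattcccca
Cxcl3: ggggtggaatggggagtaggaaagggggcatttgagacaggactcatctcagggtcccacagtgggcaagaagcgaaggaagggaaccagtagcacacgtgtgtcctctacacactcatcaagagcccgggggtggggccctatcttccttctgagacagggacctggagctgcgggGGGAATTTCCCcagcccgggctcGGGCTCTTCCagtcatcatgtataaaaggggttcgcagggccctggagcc
Il1rn: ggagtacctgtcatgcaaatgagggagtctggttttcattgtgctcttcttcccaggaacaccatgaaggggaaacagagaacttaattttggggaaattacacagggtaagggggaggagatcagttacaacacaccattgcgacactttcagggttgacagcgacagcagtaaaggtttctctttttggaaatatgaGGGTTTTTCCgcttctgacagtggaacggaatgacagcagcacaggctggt

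The 15 named falls included genes of a cytokine, lectins, transporters, receptors and lipid enzymes. *Tslp*, the epithelial cytokine thymic stromal lymphopoietin, stood at 65.3, 94.4, 79.3 and 82.7 CPM with saline and had no UMI in any LPS library, at least 95.7-fold lower against a floor of 3 counts over the LPS libraries. *Pla2g2d*, a secreted phospholipase A2, stood at 84.4, 134, 89.2 and 169 CPM with saline and had 1 UMI over the LPS libraries, a ratio of saline to LPS of 420 with a counting interval of 75.2 to 16600. *Mgl2*, the galactose-type lectin CD301b, fell from 203, 246, 289.7 and 242 CPM to 4.60, 1.49, 1.90 and 6.72 CPM (log2 fold change -5.99, SE 0.26, adjusted p = 3.5e-10). The C-type lectins *Cd209a* and *Cd209f*, members of a family of close copies among which reads can be split, fell too. *Cd209f* stood at 336, 362, 178 and 318 CPM with saline and 0.920, 0, 9.52 and 6.72 CPM with LPS (log2 fold change -5.98, SE 0.42, adjusted p = 2.8e-08), and *Cd209a* had a log2 fold change of -6.75. *Gas6*, a ligand of the receptors Axl and Mertk that bridges them to dying cells, fell from 651, 780.2, 704 and 822 CPM to 12.9, 16.4, 18.1 and 10.1 CPM (log2 fold change -5.68, SE 0.20, adjusted p = 6.7e-11). *Slc40a1*, the iron exporter ferroportin, fell from 188, 200.3, 159 and 165 CPM to 0.920, 1.49, 1.90 and 7.84 CPM (log2 fold change -5.85, SE 0.31, adjusted p = 2.1e-09). *Ednrb*, endothelin receptor B, fell from 115, 95.4, 101 and 85.7 CPM to 0.920, 1.49, 1.90 and 2.24 CPM (log2 fold change -5.87, SE 0.27, adjusted p = 4.7e-10). *Ltc4s*, leukotriene C4 synthase, fell from 502, 590.4, 547 and 711 CPM to 11.9, 32.7, 14.3 and 28.01 CPM (log2 fold change -4.82, SE 0.26, adjusted p = 2.1e-09). For every gene of this paragraph all LPS libraries lay below all saline libraries, which was a condition for naming them. The other leading falls were *Gpr34* (-5.92), *Hpgd* (-5.52), *Slc46a3* (-5.28), *Ramp1* (-5.26), *Cyp27a1* (-5.08) and *Slc2a5* (-5.06), given as log2 fold changes.

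**Figure D2:**
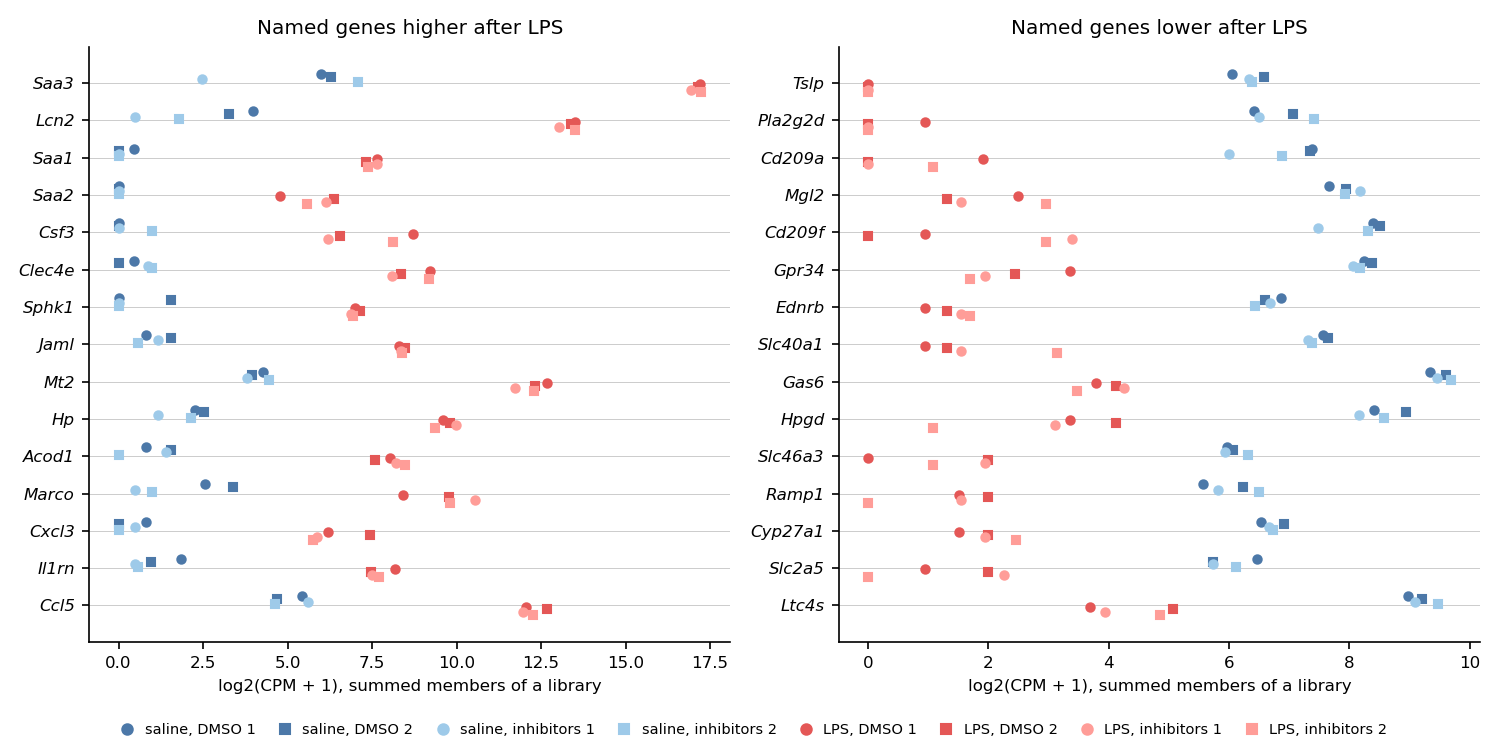
Points are the log2(CPM + 1) of the 15 named rises and 15 named falls in each of the 8 libraries, saline in blue and LPS in red, inhibitors in the lighter shade, replicate 1 as circles and replicate 2 as squares. For every gene the 4 LPS points lie on 1 side of the 4 saline points, as the rule for naming them required.

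Genes that mark border macrophages but were no part of the rule mostly fell. The counts of this and the following lists stand beside 25.8% of all genes called higher and 25.8% called lower, and a share near that says nothing about a list. Of 21 tested, 17 were lower and 2 higher with LPS, at a median log2 fold change of -2.42 beside -0.03 for all genes. *Lyve1* stood at 717, 320.5, 541 and 341 CPM with saline and 18.4, 29.7, 24.8 and 25.8 CPM with LPS (log2 fold change -4.30, SE 0.29, adjusted p = 1.7e-08). *Apoe* stood at 23990, 32660, 30000 and 34510 CPM and 4499, 6717, 5472 and 5879 CPM (log2 fold change -2.42, SE 0.20, adjusted p = 1.7e-07). *Maf*, a transcription factor of resident macrophages, stood at 2251, 2015, 1916 and 1995 CPM and 375, 478, 429 and 389 CPM (log2 fold change -2.29, SE 0.15, adjusted p = 1.4e-08). All these groups were apart. *Ms4a7* changed by -2.01 and *F13a1* by -1.10 on the log2 scale. *Clec10a*, the galactose-type lectin CD301a, changed by -1.04, a call that was lost when the rule was applied to thinned cells (-0.23) and among inhibitor libraries alone (-0.53). The 2 rises were *Cp*, the ferroxidase ceruloplasmin, from 211, 179, 164 and 182 CPM to 792, 672, 597 and 824 CPM (log2 fold change 1.97, SE 0.15, adjusted p = 9.4e-08), and *Cd38*, an NAD-consuming ectoenzyme, from 212, 216, 196 and 173 CPM to 823, 594, 673 and 674 CPM (log2 fold change 1.80, SE 0.15, adjusted p = 1.5e-07). *Tgfbi*, a matrix protein of tissue macrophages, was at 625, 570.4, 648 and 701 CPM and 588, 890.2, 855 and 503 CPM, a difference that did not pass the test (log2 fold change 0.16, SE 0.19, adjusted p = 0.503).

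MHC class II genes, which present peptides to CD4 T cells, were lower for 9 of 10 tested and higher for none, at a median of -2.94. *Cd74*, the invariant chain, stood at 6030, 9415, 8626 and 11700 CPM with saline and 2012, 2712, 2597 and 1870 CPM with LPS (log2 fold change -1.95, SE 0.21, adjusted p = 2.8e-06). The chains *H2-Aa* and *H2-Ab1* changed by -3.21 and -2.94 and *H2-Eb1* by -3.25, and *H2-DMa*, which loads peptides, by -3.26. Among scavenger and endocytic receptors, 12 of 16 tested were lower and 2 higher, with a median of -0.88. The rises were *Marco* and *Msr1*, the class A scavenger receptor, which went from 204, 194, 197 and 179.6 CPM to 1614, 1222, 1381 and 1306 CPM (log2 fold change 2.83, SE 0.15, adjusted p = 2.1e-09). The fatty acid and oxidised lipoprotein receptor *Cd36* went the other way, from 391, 425, 341 and 352 CPM to 28.5, 20.8, 27.6 and 29.1 CPM (log2 fold change -3.80, SE 0.17, adjusted p = 3.5e-10).

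Of 18 chemokine genes tested, 11 were higher and 2 lower with LPS, at a median of 1.30. *Cxcl2*, which attracts neutrophils, stood at 149, 33.4, 3.74 and 16.1 CPM with saline and at 1937, 632, 163 and 404 CPM with LPS (log2 fold change 4.18, SE 0.51, adjusted p = 8.7e-06). *Ccl3*, which attracts monocytes and T cells, was higher with LPS at 2108, 939, 579 and 985 CPM against 696, 416, 26.98 and 23.4 CPM (log2 fold change 3.04, SE 0.58, adjusted p = 5.1e-04). The groups did not overlap for *Cxcl2*, while for *Ccl3* the highest saline value, in DMSO 1, exceeded the lowest LPS value, and its call was lost when the ex vivo treatment was left out of the model (1.98, adjusted p = 0.0528). The falls were *Ccl24*, an eosinophil attractant (-3.46), and *Ccl8*, a monocyte attractant (-2.20). *Ccl2*, the main ligand of the monocyte receptor CCR2, stood at 1536, 1115, 82.2 and 107 CPM and 1263, 652, 466 and 229.7 CPM, groups that overlapped (log2 fold change 0.66, SE 0.41, adjusted p = 0.193). Among inhibitor libraries alone its log2 fold change was 1.89 and passed the test, and without LPS DMSO 2 it was 1.12 (adjusted p = 0.0204), and without the filter on low counts 0.61 (adjusted p = 0.00243). *Ccl7*, its neighbour in sequence and receptor, changed by 0.50 (adjusted p = 0.262) and by 1.56 among inhibitor libraries alone, where it passed the test, and by 0.92 without LPS DMSO 2 (adjusted p = 0.0226) and 0.44 without the filter (adjusted p = 0.0374).

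Cytokines and genes of the interleukin-1 family were higher for 9 of 17 tested and lower for 2, at a median of 1.13. *Il1r2*, the decoy receptor for interleukin-1, stood at 1.88, 2.86, 1.25 and 2.43 CPM with saline and 111, 99.6, 163 and 123 CPM with LPS (log2 fold change 5.94, SE 0.24, adjusted p = 1.6e-10). *Tnf*, tumour necrosis factor, stood at 115, 93.5, 17.02 and 25.8 CPM and 232, 89.2, 80.9 and 91.9 CPM (log2 fold change 1.23, SE 0.30, adjusted p = 0.00299). *Il1b*, interleukin-1 beta, stood at 37.9, 103, 18.7 and 21.9 CPM and 166, 77.3, 35.2 and 73.9 CPM (log2 fold change 1.13, SE 0.32, adjusted p = 0.00863). For both genes the groups overlapped, both calls were lost without the ex vivo term, with the rule on thinned cells (0.25 for *Tnf*, 1.14 for *Il1b*) and among DMSO libraries alone (0.63 and 0.89), that on *Tnf* with a limit of 5 marker UMIs without mixed cells (0.62), and that on *Il1b* without LPS DMSO 1 (0.91, adjusted p = 0.0536). The falls were *Tgfb1*, transforming growth factor beta 1 (-0.77), and *Casp1*, the inflammasome protease (-0.64, lost with the rule on thinned cells and among DMSO libraries alone).

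In the LPS sensing pathway *Tlr4*, the receptor, went from 210.1, 121, 169 and 141 CPM to 46.9, 54.99, 65.7 and 44.8 CPM (log2 fold change -1.60, SE 0.20, adjusted p = 8.2e-06). Its partner *Ly96*, which encodes MD-2, changed by -0.85 (-0.48 and not called with the rule on thinned cells) and the adaptor *Ticam2* by -1.79. These were the 3 lower genes of the 27 tested, and 16 were higher, at a median of 1.02. *Cd14*, the co-receptor, rose from 586, 404, 292 and 258 CPM to 1661, 1453, 349 and 509.7 CPM (log2 fold change 1.15, SE 0.22, adjusted p = 4.4e-04), and its ranges overlapped. Feedback inhibitors were among the rises. *Nfkbia*, the NF-kappaB inhibitor, stood at 524, 208, 149 and 157 CPM with saline and 1954, 1612, 991 and 1204 CPM with LPS (log2 fold change 2.55, SE 0.25, adjusted p = 7.6e-07). *Socs3*, an inhibitor of cytokine receptor signalling, stood at 59.3, 35.3, 7.06 and 11.2 CPM and 1218, 731, 306 and 311 CPM (log2 fold change 4.63, SE 0.25, adjusted p = 2.3e-09), and *Tnfaip3*, the ubiquitin-editing enzyme A20, changed by 3.69.

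Among acute-phase and iron-handling genes, 10 of 16 tested were higher and 5 lower, at a median of 1.21. *Fth1*, the ferritin heavy chain, stood at 3798, 4736, 4178 and 4969 CPM with saline and 20990, 23330, 14470 and 23330 CPM with LPS (log2 fold change 2.21, SE 0.20, adjusted p = 4.5e-07), while *Ftl1*, the light chain, changed by -0.17 and did not pass the test (it was called lower without TMM). *Slc40a1*, described above, was the largest of the 5 falls, beside *Blvrb*, *Spic*, *Blvra* and *Slc48a1*, of which biliverdin reductases and the haem transporter act in the breakdown of haem. *Mt1* changed by 4.22; with *Mt2* it forms a pair of close copies. Of 19 complement and Fc receptor genes tested, 9 were higher and 5 lower, at a median of 0.17, the share of lower genes being near that of all genes. *Cfb*, factor B of the alternative pathway, changed by 5.41 and *Fcgr4*, an activating receptor for IgG, by 4.26. *C1qa*, a chain of the recognition molecule C1q, stood at 5347, 6450, 5644 and 7380 CPM and 5116, 7382, 4662 and 5019 CPM and did not pass the test (log2 fold change -0.17, SE 0.19, adjusted p = 0.46), although it was called lower without TMM (-0.47) and without mixed cells (-0.44). *C1qb* changed by 0.04, also below the threshold, and *C1qc* fell by 0.95 on the log2 scale.

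Interferon-stimulated genes, tested for 20 of 24, were higher for 8 and lower for 3, at a median of 0.29. *Irf7*, a transcription factor of the type I interferon response, stood at 27.4, 29.6, 25.3 and 36.01 CPM with saline and 222, 216, 239.8 and 207 CPM with LPS (log2 fold change 2.91, SE 0.15, adjusted p = 2.0e-09). *Ifitm3*, an inhibitor of viral entry, changed by 1.36 and the ubiquitin-like *Isg15* by 1.57. *Ifit3* and its close copy *Ifit3b* were among the falls. Growth factors and matrix genes were lower for 11 and higher for 8 of 19, at a median of -1.34. *Igf1*, insulin-like growth factor 1, stood at 238, 331, 237 and 300.3 CPM and 6.44, 8.92, 16.2 and 32.5 CPM (log2 fold change -4.14, SE 0.30, adjusted p = 4.7e-08). *Mmp14*, a membrane-bound matrix metalloprotease, moved the other way, from 35.6, 41.01, 42.8 and 38.9 CPM to 1011, 748, 951 and 1091 CPM (log2 fold change 4.59, SE 0.17, adjusted p = 9.5e-11). *Nrp1*, a co-receptor of growth factors, changed by -3.15 and *Timp2*, a metalloprotease inhibitor, by -2.06.

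Lysosomal genes were lower for 11 and higher for 3 of 16 tested, at a median of -0.77. Among the rises, *Ctsl*, the protease cathepsin L, went from 249, 350, 276 and 320.2 CPM to 2533, 2908, 1791 and 2601 CPM (log2 fold change 3.03, SE 0.19, adjusted p = 7.5e-09). *Ctsd*, cathepsin D, went from 3097, 3861, 3740 and 4080 CPM to 1182, 1247, 1298 and 1388 CPM (log2 fold change -1.53, SE 0.15, adjusted p = 8.3e-07) and *Ctsb*, cathepsin B, changed by -1.23. Genes of glycolysis and effector enzymes were higher for 16 of 17 tested and lower for none, at a median of 1.71. *Sod2*, the mitochondrial superoxide dismutase, stood at 40.1, 37.2, 42.8 and 50.1 CPM and 1695, 1303, 1367 and 1704 CPM (log2 fold change 5.15, SE 0.18, adjusted p = 5.8e-11). *Pfkfb3*, which sets the flux through phosphofructokinase, changed by 3.39, *Pkm*, pyruvate kinase, by 2.40 and *Ldha*, lactate dehydrogenase, by 1.38. Macrophage transcription factors were split at 7 higher and 7 lower of 19, at a median of -0.10, with *Id2* (3.57) and *Cebpb* (1.52, not called among DMSO libraries alone) among the rises and *Maf* among the falls. Of 12 cell cycle genes tested, *Ccnb1*, *Cdk1*, *Tyms* and *Hmgb2* were higher and *Stmn1* lower (-0.72, not called without mixed cells or among DMSO libraries alone), at a median of 0.49. Heat shock genes were higher for 4 and lower for 5 of 11, at a median of -0.08. The alternatives were followed for 103 genes of the LPS comparison. The 1 called gene of these that changed direction was *Ccl12*, another chemokine, at 631, 499.8, 319.6 and 359 CPM with saline and 638, 764, 659 and 836 CPM with LPS (log2 fold change 0.72, SE 0.19, adjusted p = 0.0046), with -0.20 without mixed cells and -0.25 with the rule on thinned cells.

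**Figure D3:**
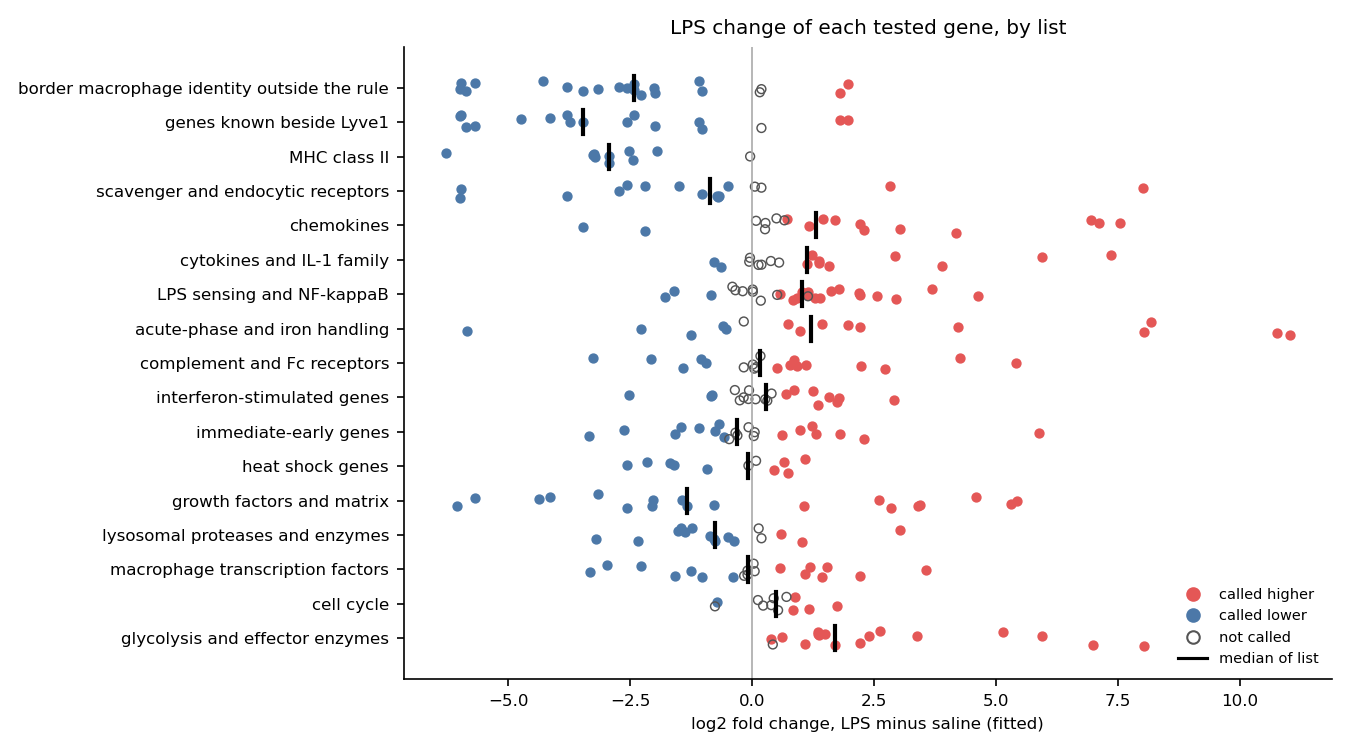
Each point is the fitted log2 fold change of LPS against saline of 1 tested gene, by the 17 gene lists. Filled points passed the test (red higher, blue lower), open points did not, and the line is the median of the list. Glycolysis and effector enzymes lie almost wholly above 0, and MHC class II genes and border macrophage genes mostly below it.

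Markers of other cells moved with the LPS comparison, and their part in the results was not tested. The 8 microglial markers summed to 4722 to 5178 CPM with saline and 2153 to 3008 CPM with LPS, with *Sparc* higher and the other 7 lower. The 6 monocyte markers summed to 84.7 to 103 CPM with saline and 96.6 to 674 CPM with LPS, with *Ly6c2*, *F10*, *Plac8* and *Vcan* higher and *Ccr2* lower of 5 tested. The 7 neutrophil markers summed to 20.3 to 176 CPM and 513 to 909 CPM, with *Mmp8* and *S100a8* higher of 4 tested. Choroid plexus markers, among them *Ttr*, which the member rule limits, summed to 1849 to 8730 CPM with saline and 736 to 1280 CPM with LPS. In saline libraries these sums parted by batch, at 2123 and 1849 CPM in batch 1 and 8698 and 8730 CPM in batch 2. *Enpp2*, the 1 of them tested, was lower. Markers of dendritic cells went from 355 to 492 CPM down to 70.4 to 114 CPM, with *Cd209a* and *Siglech* lower of 2 tested. B cell markers summed to 266 to 403 CPM and 33.1 to 52.7 CPM, with *Ighm* lower of 2 tested. *Cd79a* was at 0, but it is a gene that the rule limits. Haemoglobin genes were lower for 3 of 3 tested. The T cell gene *Cd3e*, at 0, and the endothelial *Cldn5* are limited by the rule too. The sums of markers of T and NK cells, endothelial cells, fibroblasts and oligodendrocytes overlapped between the groups, with the endothelial *Flt1* lower of 3 tested. Those of pericytes summed to 25.3 to 54.4 CPM and 1.90 to 10.1 CPM, with *Vtn*, the 1 of them tested, lower. Without the mixed cells, 4192 of the 5118 calls were made in the same direction and 1 in the opposite, and with free RNA subtracted 4900 were made in the same direction and none in the opposite.

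The second comparison set brains dissociated in DMSO against brains dissociated with the inhibitors, which were added against transcription during dissociation. Induction by dissociation, decay of transcripts and other effects of the inhibitors cannot be told apart in it. DMSO libraries exceeded inhibitor libraries for 53 of 9915 genes (0.535%), and no gene was lower (0%), with 381 genes (3.84%) at an unadjusted p under 0.05. DESeq2 called 60 higher and 0 lower, with the replicate number as a block 74 were higher and 2 lower, and without the filter on low counts 117 were higher and 17 lower. Immediate-early genes, the transcription factors and signal regulators induced within minutes of a stimulus, were higher for 18 of 21 tested, at a median log2 fold change of 2.98 beside 0.00 for all genes. *Fos* stood at 3474, 2682, 2418 and 1865 CPM in the DMSO libraries (saline 1 and 2, then LPS 1 and 2) and at 85.9, 97.3, 95.2 and 72.8 CPM in the inhibitor libraries (log2 fold change 4.88, SE 0.20, adjusted p = 2.4e-09). *Fosb* stood at 352, 212, 40.5 and 13.4 CPM and 5.40, 4.87, 0 and 0 CPM (log2 fold change 5.84, SE 0.37, adjusted p = 3.0e-07). *Zfp36*, which destabilises cytokine transcripts, stood at 2289, 1433, 2419 and 1482 CPM and 164, 151, 177 and 137 CPM (log2 fold change 3.60, SE 0.21, adjusted p = 2.2e-07). The DMSO and inhibitor libraries did not overlap for these 3 genes, which was a condition for naming them. For *Dusp1*, a phosphatase of MAP kinases, the LPS pair lay above the saline pair within each ex vivo treatment, with 2206, 908, 4211 and 2734 CPM in DMSO libraries and 59.4, 57.4, 735 and 628 CPM in inhibitor libraries (log2 fold change 3.50, SE 0.44, adjusted p = 4.7e-04). Without the in vivo term only 8 of the 53 calls in this comparison were made again. Genes whose call was lost in that fit included *Fosb*, *Atf3*, *Dusp1*, *Hspa1a*, *Hspa1b*, *Ccl2* and *Ccl7*, with log2 fold changes there of 5.61 for *Fosb*, 5.06 for *Hspa1a* and 2.37 for *Ccl2*. The other leading genes were *Atf3* (4.26), *Nr4a1* (4.07), *Egr1* (3.78) and *Jun* (3.41), given as log2 fold changes.

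Outside the immediate-early genes lay 35 of the 53 calls, 14 of them in other lists and 21 in none. The heat shock genes *Hspa1a* (5.16) and *Hspa1b* (5.08), near-identical copies between which reads can be split, were the 2 higher of 11 tested. *Hspa1a* stood at 568, 225, 98.4 and 72.8 CPM in DMSO libraries and 11.2, 9.73, 3.81 and 2.24 CPM in inhibitor libraries. Chemokines were higher for 5 of 18, namely *Cxcl1*, *Ccl4*, *Ccl2*, *Cxcl2* and *Ccl7*. *Ccl2* stood at 1536, 1115, 1263 and 652 CPM and 82.2, 107, 466 and 229.7 CPM (log2 fold change 2.63, SE 0.43, adjusted p = 0.00556), and *Ccl7* changed by 2.35. *Osm*, *Tnf*, *Nfkbiz*, *Socs3*, *Cd14* and *Ptgs2* were the other calls in the lists of cytokines, LPS sensing and effector enzymes. None of the lists of identity, MHC class II, acute-phase, complement, interferon-stimulated, lysosomal or cell cycle genes had a call. Of 4 haemoglobin genes, *Hba-a2* was higher of 3 tested. Whether the LPS change itself differed between DMSO and inhibitor libraries was tested as an interaction, and no gene of 10459 passed (0%), with 386 (3.69%) at an unadjusted p under 0.05, while DESeq2 called 8 genes with a lower LPS change in DMSO libraries. With the replicate number as a block 4 genes had a higher and 10 a lower LPS change there.

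**Figure D4:**
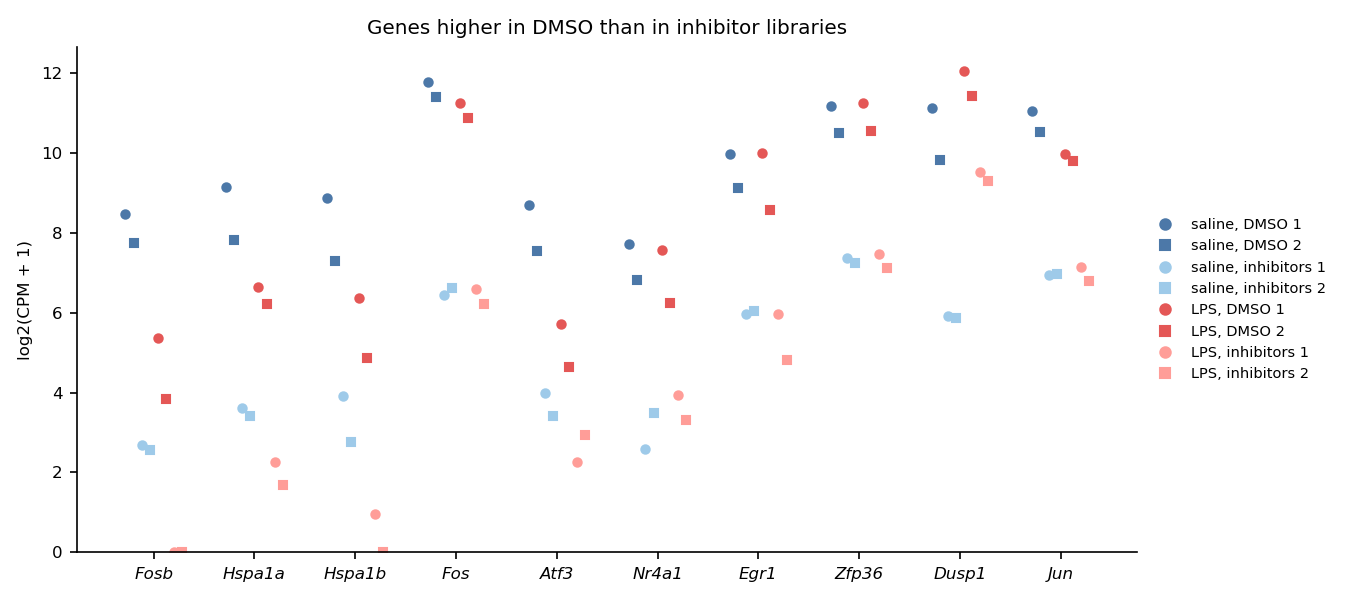
Points are the log2(CPM + 1) of the 10 genes with the largest DMSO difference in each library, by ex vivo treatment and by saline or LPS. *Fos* lies at 1865 to 3474 CPM in the DMSO libraries and at 72.8 to 97.3 CPM in the inhibitor libraries.

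*Lyve1* divided the members, and the share of *Lyve1*-positive cells differed with LPS. As *Lyve1* RNA was lower with LPS, fewer *Lyve1* cells and less *Lyve1* RNA per cell cannot be told apart in this share. Among members thinned to 2000 UMIs (shallower members left out, 215 to 421 per saline library and 42 to 88 per LPS library), 42.5%, 31.2%, 40.4% and 27.1% were positive with saline and 2.02%, 3.95%, 3.98% and 4.21% with LPS. The groups did not overlap, in either batch, and the difference of the means was -31.8 percentage points (35.3 ± 7.32% against 3.54 ± 1.02%, n = 4 and 4, exact two-sided permutation test p = 0.0286, the smallest p that 4 against 4 allows). Within batches the difference was -38.4 points in batch 1 and -25.1 points in batch 2, and labels exchanged only within batches gave p = 0.0556, the smallest p that their 36 arrangements allow (exact two-sided permutation test). Wilson 95% intervals ran from 38.2% to 46.9% for saline DMSO 1 and from 0.864% to 4.63% for LPS DMSO 1. Without thinning the shares were 45.4%, 25.7%, 40.6% and 27.5% with saline and 4.89%, 5.67%, 5.54% and 5.35% with LPS. In microglia of the same libraries, with medians of 2172 to 4935 UMIs, 0.0239% to 0.866% of cells held a *Lyve1* UMI, and none of 423 B cells of all libraries did (medians of 1284 to 2047.5 UMIs), which allows a share of up to 0.709%. The unthinned LPS shares of the members, 4.89% to 5.67%, lay above each microglial share. The interval of the thinned share in LPS DMSO 1 reached down to the highest microglial share, which was unthinned and came from saline DMSO 1. In microglia thinned to 2000 UMIs the share was 0.673% in saline DMSO 1 and 0.0478% in LPS DMSO 1. The limit from B cells, pooled over all libraries, is not one for the LPS libraries alone.

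*Lyve1*-positive and *Lyve1*-zero members were then compared within libraries. Of 10708 genes, 620 (5.79%) passed the test, and 169 were higher (1.58%) and 451 lower (4.21%) in positive members. In all 8 libraries 23 genes were higher (0.215%) and 444 lower (4.15%). A gene without a UMI in the few positive cells of an LPS library can count there only as lower or equal, so these counts cannot be weighed against each other. The direction of the calls rests on the scaling, since library totals without TMM gave 345 higher and 286 lower (54.7% rises in place of 27.3%). Positive members had the higher median UMI count in each saline library, 2142 to 2878 against 1833 to 2556.5 for zero members, and no LPS library kept enough positive cells for a thinned fit. In LPS libraries the positive sums came from 11 to 16 cells each, against 108 to 327 in saline libraries, so the saline values carry most of the comparison. In saline libraries alone, 531 of the 620 calls had the same direction and passed, in saline libraries with cells thinned to 2000 UMIs 318, and in all libraries without mixed cells 194. DESeq2 called 80 higher and 121 lower and made 193 of the 620 calls in the same direction.

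Genes known from *Lyve1*-high macrophages were higher in positive members, 13 of 19 tested and none lower, at a median of 0.74 beside -0.04 for all genes. *Fcna*, the lectin ficolin A, stood at 807, 868, 691 and 656 CPM in positive members of the saline libraries and 49.98, 94.8, 53.2 and 76.9 CPM in zero members (log2 fold change 3.20, SE 0.14, adjusted p = 9.6e-115). *Timd4*, a receptor for phosphatidylserine, stood at 228, 192, 169.6 and 256 CPM and 46.6, 50.4, 27.4 and 84.8 CPM (log2 fold change 2.12, SE 0.15, adjusted p = 2.5e-42). *Cd209f* stood at 614, 823, 362 and 649 CPM and 151, 240.1, 82.3 and 228 CPM (log2 fold change 1.82, SE 0.14, adjusted p = 9.8e-36). Positive members lay above zero members in every saline library for these 3 genes, which for *Fcna* was a condition for naming it. *Folr2*, folate receptor beta, stood at 541, 608, 648 and 622 CPM and 158, 273, 151 and 224 CPM (log2 fold change 1.48, SE 0.13, adjusted p = 6.1e-28), and *Ednrb* at 195, 219, 208 and 155 CPM and 66.9, 62.2, 44.9 and 69.8 CPM (log2 fold change 1.65, SE 0.15, adjusted p = 8.0e-24). In LPS libraries *Ednrb* had no UMI in positive members and *Cd209f* none in 3 of the 4, so these differences rest on the saline libraries. *C4a*, a close copy of the complement gene *C4b*, had a log2 fold change of 1.30 and *Klf2*, a transcription factor, of 1.01. *Apoe* did not pass the test (log2 fold change 0.06, SE 0.09, adjusted p = 0.849). The rises of *F13a1* (0.64), *Clec10a* (0.48) and *Ccl24* (0.84) were not called without mixed cells. *Clec10a* and *Axl* also had the opposite sign in LPS libraries alone, where *Clec10a* was at -0.23 and *Axl* at 0.56, beside -0.88 for *Axl* in all libraries, which was not called with DESeq2 or without mixed cells.

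MHC class II genes were lower in positive members for 8 of 10 tested and higher for none, at a median of -2.07. *H2-Aa* stood at 149.7, 238, 502 and 1388 CPM in positive and 3515, 3985, 4814 and 4898 CPM in zero members of the saline libraries (log2 fold change -3.36, SE 0.15, adjusted p = 4.1e-114). *Cd74* stood at 1412, 1869, 1934 and 6239 CPM and 12220, 13890, 15800 and 16130 CPM (log2 fold change -2.54, SE 0.11, adjusted p = 8.3e-112). Positive members of saline inhibitors 2 had the highest values of both genes among the positive sums and still lay below the zero members of every saline library. *H2-Eb1* and *H2-Ab1* had log2 fold changes of -3.15 and -2.80. The largest fall was in *Ccr2*, the chemokine receptor of monocytes, at 6.85, 3.77, 9.85 and 12.5 CPM and 159, 97.8, 180.4 and 92.6 CPM (log2 fold change -3.99, SE 0.25, adjusted p = 5.5e-54). *Lpl*, lipoprotein lipase (-2.15), *Cd52*, a leukocyte surface glycoprotein (-1.60), and *Lilra5*, an activating receptor of myeloid cells (-1.72), fell as well. The chemokines *Cxcl16* (-1.26) and *Ccl5* (-1.15) were lower, 7 of 18 chemokines being lower and 4 higher (*Ccl24*, *Ccl7*, *Ccl2* and *Ccl6*, of which *Ccl24*, *Ccl7* and *Ccl2* were not called with DESeq2). Of 12 cell cycle genes 6 were lower, with *Stmn1* at -1.69.

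Markers of other cells differed between positive and zero members too, and their part in the result was not tested. The 8 microglial markers summed to 3526 to 4659 CPM in positive and 5930 to 7081 CPM in zero members of the saline libraries, and 6 of them were lower in positive members. *P2ry12* was at a log2 fold change of -0.10 (adjusted p = 0.814). Monocyte markers summed to 21.4 to 50.03 CPM and 115 to 187 CPM, with *Ccr2* the 1 lower of 6. Of the 7 neutrophil markers *Ngp* and *S100a9* were higher of 5 tested, with 708 and 1125 CPM in the positive members of LPS inhibitors 1 and log2 fold changes of 0.12 and 0.03, not called, in saline libraries alone. Of the fibroblast markers *Col1a2* and *Dcn* were lower. Leaving out saline DMSO 1 gave 50 higher and 270 lower genes, leaving out saline inhibitors 1 gave 47 and 283, and leaving out saline DMSO 2 gave 80 higher.

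**Figure D5:**
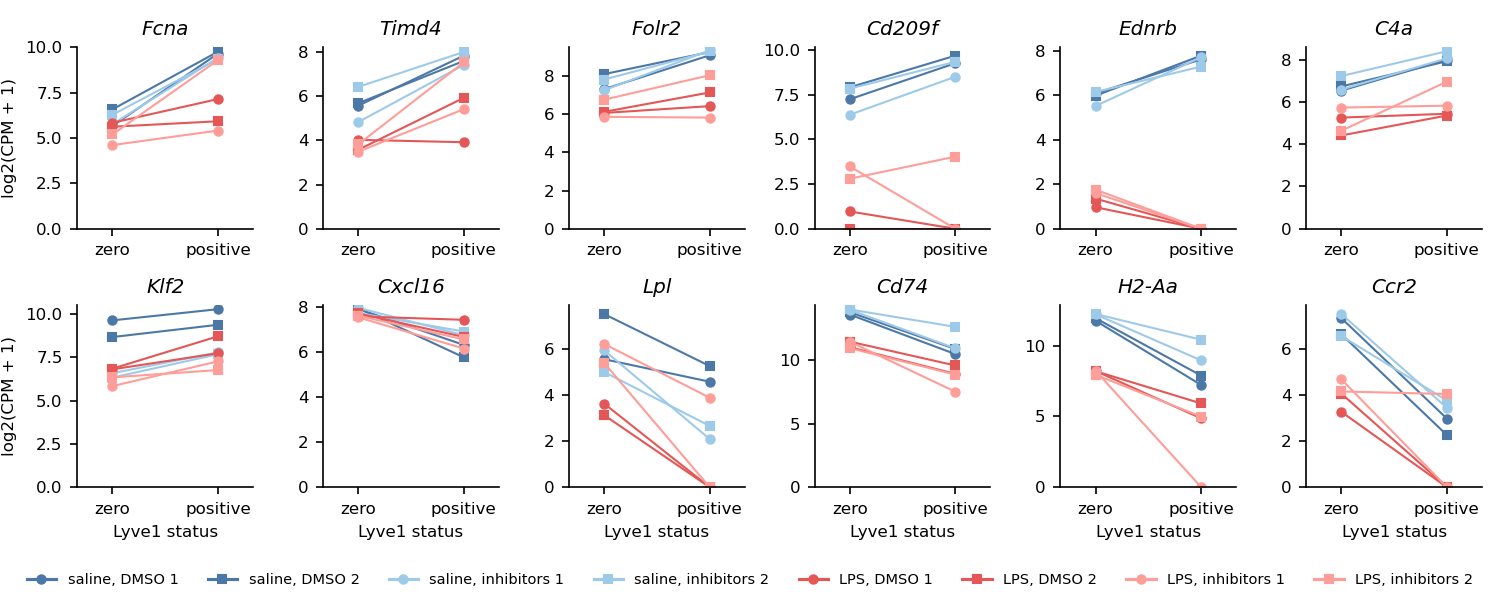
For each of 12 genes, lines join the CPM of *Lyve1*-zero and *Lyve1*-positive members of the same library, on a log scale of CPM + 1, for saline and LPS libraries. *Fcna* rises along every saline line, and *Ccr2*, *H2-Aa* and *Cd74* fall along each of them, as the rule for naming these genes required.

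*Lyve1* RNA was lower with LPS, so the positive and zero classes need not hold the same kinds of cell with saline and with LPS. Whether the LPS change differed between these classes was tested as an interaction, with few positive cells behind the LPS values. The interaction cannot separate a change within cells from cells that moved between the classes. It passed for 73 genes, 16 with a higher (0.149%) and 57 with a lower (0.532%) LPS change in positive members, against a median difference of -0.31 over all genes. *Mmp14* stood at 9.41, 7.55, 13.1 and 7.15 CPM in positive members with saline and 479.7, 459, 1014 and 585 CPM with LPS, while zero members went from 71.2, 60.8, 75.6 and 59.6 CPM to 1018, 749, 945 and 1116 CPM (difference of log2 fold changes 2.19, SE 0.31, adjusted p = 6.7e-09). *Ch25h*, which makes 25-hydroxycholesterol, stood at 0 to 4.38 CPM in positive members with saline and 0 to 508 CPM with LPS, against 21.98 to 44.5 CPM and 62.4 to 324 CPM in zero members (difference of log2 fold changes 3.40, SE 0.47, adjusted p = 2.8e-09). These 2 named genes kept their call with DESeq2. The balance of directions did not hold with DESeq2, which called 15 genes with a higher and 8 with a lower LPS change in positive members, at a median of -0.02, and leaving out 1 library gave 7 to 16 higher and 44 to 188 lower.

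Set against microglia of the same libraries, the LPS response of the members differed for 1559 of 20027 genes in the upward direction (7.78%) and 2316 in the downward direction (11.6%), with the library as a block. The largest upward differences belonged to genes whose microglial means lay close together in saline and LPS libraries, the means being scaled in a fit of both classes. *Gda*, guanine deaminase, went from 9.94 ± 2.81 CPM to 252 ± 26.7 CPM in members and from 4.91 ± 0.367 CPM to 5.40 ± 0.957 CPM in microglia (difference of log2 fold changes 4.53, SE 0.20, adjusted p = 7.8e-34). *Slpi*, a secreted leukocyte protease inhibitor, went from 2.15 ± 1.64 CPM to 51.1 ± 29.4 CPM in members and from 3.04 ± 0.319 CPM to 2.43 ± 0.526 CPM in microglia (difference of log2 fold changes 4.97, SE 0.50, adjusted p = 7.4e-14). *Slc7a2*, an arginine transporter, went from 4.99 ± 2.42 CPM to 144 ± 58.00 CPM in members and from 2.84 ± 0.650 CPM to 3.23 ± 0.206 CPM in microglia (difference of log2 fold changes 4.65, SE 0.30, adjusted p = 9.9e-24). *Steap4*, a metalloreductase (4.73), and *Ttc39c* (4.57) had the same pattern. Markers of other cells differed in this comparison too, and their part in it was not tested. Microglia were limited on the monocyte genes *Ly6c2* and *Plac8* and members were not, so monocyte markers are not compared on equal terms. A higher LPS change in members was called for 5 of 7 neutrophil markers, 3 of 4 monocyte markers and 4 of 4 haemoglobin genes tested. It was called for 2 of 3 endothelial and 1 of 4 fibroblast markers, and a lower one for 2 of 3 B cell markers. Markers of dendritic cells, T and NK cells, choroid plexus, pericytes and oligodendrocytes had no call. Of 18 acute-phase and iron-handling genes tested, 5 had a higher LPS change in members and 9 a lower one, at a median of -0.82. *Saa3* rose further in members than in microglia (difference of log2 fold changes 1.68, SE 0.15, adjusted p = 3.7e-16), as did *Lcn2* (1.94), *Hp* (2.60) and *Mt2* (2.33).

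Interferon-stimulated genes had a lower LPS change in members than in microglia for 16 of 22 tested and a higher one for none, at a median of -1.71 beside -0.003 for all genes. *Ifit3* went from 38.4 ± 5.57 CPM to 22.1 ± 8.52 CPM in members and from 12.4 ± 3.92 CPM to 19.5 ± 6.78 CPM in microglia (difference of log2 fold changes -1.61, SE 0.24, adjusted p = 8.3e-08). *Fpr1*, the formyl peptide receptor, rose from 22.9 ± 4.36 CPM to 368 ± 52.3 CPM in members and from 1.23 ± 0.794 CPM to 757 ± 89.03 CPM in microglia (difference of log2 fold changes -5.33, SE 0.21, adjusted p = 1.5e-37). *Clec4a1*, a C-type lectin, rose from 224 ± 13.9 CPM to 536 ± 40.5 CPM in members and from 8.34 ± 2.15 CPM to 856 ± 71.02 CPM in microglia (difference of log2 fold changes -5.45, SE 0.13, adjusted p = 5.5e-53). Chemokines had a lower change for 11 and a higher one for 4 of 19 tested, with *Ccl12* at -3.56. *Cd74* fell in members and went from 429.9 ± 98.8 CPM to 869 ± 120 CPM in microglia (difference of log2 fold changes -2.97, SE 0.11, adjusted p = 5.3e-39). Genes of glycolysis and effector enzymes had a higher change in members for 8 and a lower one for 4 of 19, at a median of 0.60. The differences of *Tslp* (-9.84) and *Pla2g2d* (-7.21) belonged to genes with saline means in microglia of 1.93 ± 0.422 CPM and 0.252 ± 0.107 CPM. Leaving out any 1 LPS library moved the median over all genes from -0.003 to between -0.34 and -0.28 and the counts to 755 to 904 higher and 3630 to 3860 lower.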

How the data were processed

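The deposited values are counts: whole numbers of UMIs per gene and barcode, which the authors made with PIPseeker and STAR on the mouse genome GRCm39, and which hold every barcode without normalization. Limits on UMIs, genes and mitochondrial counts followed the study's methods, and its limit on a cell complexity ratio was not applied. The study also removed doublets and, before its LPS comparisons, clusters of cells activated by the dissociation, macrophages among them. Neither removal was repeated here. Members, microglia and *Lyve1* classes were chosen here on raw counts, their UMIs were summed per library, and genes were filtered with filterByExpr, scaled by TMM and tested with edgeR 4.0.16 (quasi-likelihood, R 4.3.3) with *in vivo* and *ex vivo* treatment as terms, or the library as a block for comparisons within libraries. Fold changes are fitted log2 values. Genes of a choosing rule were not tested in the comparison it defines. Shares were compared by exact permutation (scipy 1.17.1). Alternatives were DESeq2 1.42.0, other scalings, filters and marker limits, thinning, removal of mixed cells and subtraction of free RNA. The edgeR step was tested on simulated data. The replicate number is the batch of the labels and so pairs the libraries: deviations from group means correlated between groups at 0.0123 to 0.368 over 6507 genes.

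Named genes were the 15 largest rises and falls with LPS, the 10 largest DMSO rises, 12 each way by *Lyve1* (10 rises met the limits) and 5 each way by interaction, among called genes with at least 50 CPM and, outside interactions, no overlap or 1 direction in all libraries. To these came the 6 most abundant members of each list and members of counts of 5 or fewer. Other genes were chosen after their values were seen. Members, lists and tests were chosen with earlier results of these data known. Some members of the lists are not reported here by name. Coordinates in the files' build were not used here.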

Additional observations from a re-analysis of the deposited data

Results flagged for a closer look

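Of 80 groups of 4 libraries examined, 7 held a value far from the other 3, and chance gives about 1 in 20 such groups. The thinned share of *Lyve1*-positive members was 2.02% in LPS DMSO 1 and 3.95% to 4.21% in the other LPS libraries. *Cxcl3* stood at 171 CPM in LPS DMSO 2 against 52.6 to 71.7 CPM, and *C1qa* at 7382 CPM in LPS DMSO 2 against 4662 to 5116 CPM. *H2-Aa* was lowest in LPS inhibitors 2, at 234 CPM against 281 to 289 CPM, and *Slc40a1* highest there, at 7.84 CPM against 0.920 to 1.90 CPM. The remaining values rest on 1 or a few UMIs: *Csf3* at 0.973 CPM in saline inhibitors 2 and *Pla2g2d* at 0.920 CPM in LPS DMSO 1, each beside 3 libraries at 0.

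The LPS change differed by *Lyve1* status for 16 genes upward and 57 downward. Besides *Mmp14* (2.19) and *Ch25h* (3.40), the largest differences of log2 fold changes were those of *Ngp* (3.74), *Il1b* (2.37) and *S100a9* (2.10) upward and *Acod1* (-4.92), *Slc9a9* (-3.46), *S100a4* (-2.71), *Marco* (-2.38) and *Ccn1* (-2.32) downward. The values of *Ngp* and *S100a9*, genes of neutrophil granules and cytosol, rest on LPS inhibitors 1, without which they were -0.18 and -4.37. *Il1b* was 0.52 (adjusted p = 0.818) without LPS DMSO 1. *Acod1* was not called without saline inhibitors 1, *Ccn1* not without saline DMSO 1, *S100a4* not without LPS DMSO 2 or either inhibitor library of replicate 2, and *Marco* not without LPS DMSO 2, LPS inhibitors 1 or either saline DMSO library. With DESeq2 only *Ch25h* and *Mmp14* of these 10 were called.

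The LPS change differed between members and microglia for 1559 genes upward and 2316 downward, with the largest differences of log2 fold changes in *Slpi* (4.97), *Steap4* (4.73), *Slc7a2* (4.65), *Ttc39c* (4.57) and *Gda* (4.53) upward and *Tslp* (-9.84), *Pla2g2d* (-7.21), *Clec4a1* (-5.45), *Fpr1* (-5.33) and *Ch25h* (-5.18) downward. *Ch25h* rose in both classes, from 18.02 ± 6.02 to 200.5 ± 113 CPM in members and from 1.59 ± 1.08 to 602 ± 263 CPM in microglia. The fitted values of *Tslp* and *Pla2g2d* depend on the prior count, since the members had 0 or 1 UMI with LPS.

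Cells with at least 8 UMIs on the 6 genes of the rule but on fewer than 3 of them were left out by the rule. They numbered 164, 132, 135 and 130 in the LPS libraries (DMSO 1 and 2, inhibitors 1 and 2) and 22 to 51 per saline library. *Pf4* took 16.7% to 60.1% of their UMIs on these genes with LPS and 36.5% to 83.9% with saline, and *Ppbp*, a platelet gene, was detected in 0% to 11.5% and 9.09% to 44.1% of them. They entered no comparison.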

How the results depend on the processing

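The LPS comparison with the replicate block called 2839 genes higher and 2789 lower and made 5103 of the 5118 calls in the same direction. The counts moved to 1644 higher without TMM, to 1236 and 1276 with the rule on cells thinned to 2000 UMIs, where 5649 genes were tested, and to 1537 and 1494 in DMSO libraries alone. Leaving out 1 library gave 2264 to 2511 higher and 2265 to 2520 lower. The 30 named LPS genes kept call and direction throughout. *Ccl12* reversed to -0.25 with thinned cells, -0.20 without mixed cells and -0.41 with a limit of 5 marker UMIs without mixed cells (an alternative chosen after seeing the data).

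DMSO against inhibitors gave 74 higher and 2 lower with the replicate block, 117 and 17 without the filter, 8 higher without the *in vivo* term and 1 lower with thinned cells, and 42 to 68 and 0 to 1 when 1 library was left out. The LPS change by ex vivo treatment gave 4 higher and 10 lower with the replicate block, 8 lower with DESeq2, and 0 to 3 and 0 to 4 without 1 library. Among the genes named in these comparisons the block changed no call.

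The *Lyve1* comparison gave 80 higher and 121 lower with DESeq2, 345 and 286 without TMM, 110 higher without the filter, 1 and 3 without the library block, 306 higher and 470 lower in saline libraries alone, 9 and 25 in LPS libraries alone, and 38 and 175 without mixed cells. Fits that could use only the saline libraries gave 298 higher for at least 2 *Lyve1* UMIs and 259 lower after thinning. Leaving out 1 library gave 47 to 189 higher and 270 to 442 lower. *Clec10a* (-0.23) and *Axl* (0.56) reversed in LPS libraries alone. The LPS change by *Lyve1* status gave 15 higher and 8 lower with DESeq2 and 7 to 16 higher and 44 to 188 lower without 1 library. *S100a9* reversed with DESeq2 (-1.58) and ran from -4.37 without LPS inhibitors 1 to 3.59 without LPS inhibitors 2, and *Ngp* from -0.18 to 4.585 likewise. The thinned form of this interaction was not run, because no LPS library kept 10 positive cells. Leaving out libraries for the 3 interactions was added after seeing the data. Against microglia, leaving out 1 library gave 755 to 1514 higher and 2095 to 3860 lower. The share of *Lyve1*-positive members differed by -34.5 to -29.4 points without 1 library, with p = 0.0571 each (exact permutation, the smallest p that 3 against 4 allows). With a replicate block, labels being exchanged within batches (added after seeing the data), the difference of -31.8 points had p = 0.0556 (exact permutation). For other changes the cause was not tested. In LPS libraries the *Lyve1*-positive sums hold 11 to 16 cells each, which limits what these sums can show.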
